A study of Phoxinus septimaniae with 18 samples.

Results

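The 250 genes described here encode proteins that are tagged as crossing a membrane 8 to 11 times. They were found in a de novo assembly of brain, gill and liver RNA from an invasive hybrid minnow, P. septimaniae x P. dragarum of the genus Phoxinus. A gene is an assembled gene of the Trinity assembler, which can hold several transcripts, and its segment number is the highest that any of its transcripts carries in its identifier. Of 36271 such genes, 262 had a highest number of 8 to 11, after 2 with a first protein hit of an excluded source code were dropped. The 250 with the highest tissue mean in CPM, the counts scaled to a common library size, were kept, the mean being the largest of the 3 tissues. Because measured levels chose the members, their levels across tissues are given as a description with no test. The difference between stations took no part in the choice and was tested.

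The fish were caught in the Llobregat River at a salt station beside a potash mine, where salinity was 18.1 ppt, or at a less saline reference station upstream. Each tissue at each station gave 3 libraries, 18 in all, from fish that were fixed at once after capture. The 6 groups are thus brain, gills and liver at the salt station and brain, gills and liver at the reference station, all from river-caught fish of the same hybrid minnow. Neither age nor sex nor reproductive state is given in the sources used here. Station and salinity coincide, so a difference between the groups cannot be told apart from any other difference between the stations. With 3 fish a group, the tests set a difference only against the spread between these fish.

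Proteins that span a membrane many times include ion pumps, carriers of ions, sugars, amino acids and metals, some channels, and enzymes that work on lipids inside the membrane. In pumps, carriers and channels the helices form the path or pocket through which the cargo passes. In the gills of fish, such pumps and carriers move salt between blood and water, while in brain many recover transmitters and in liver many take up or export metabolites. The identifiers name protein hits by accession and pair none of the members with a gene symbol. For that reason neither a gene name nor a role is given for any of them, and the tissue labels could not be checked against marker genes. The segment numbers come from the tags as deposited, and the predictor is not given in the sources used here.

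The total count of a library lay between 23678725 and 28731252 for brain, 15200774 and 24222245 for gills, and 22183499 and 39881549 for liver. Liver is dominated by a single protein hit, which took 33.2 to 42.6% of all counts in the salt livers and 28.9% in reference 1, against 0.000151 and 0.000164% in references 2 and 3. A gene with 0 counts is bounded here by 3 counts, which is 0.0752 to 0.197 CPM depending on the library and covers counting error only.

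The members' own transcripts were set beside the fish codes of the libraries. In 84 members with several transcripts in all 3 tables, the share of each of 270 transcripts in its gene's count was compared between libraries after centring on the tissue mean. Library pairs whose codes name the same fish in different tissues gave a Pearson r of 0.259 to 0.688 (median 0.600, 10 pairs), and pairs of different codes gave -0.509 to 0.175 (86 pairs). The gill library labelled salt 3 was the exception: with its own fish code it gave -0.126 (brain) and -0.0468 (liver), but 0.456 and 0.273 with the brain and liver of reference 1 and 0.302 with the gills of reference 1. These correlations are across transcripts, share depth and tissue, and are given as a description. The gill members named below for their station difference are given with and without that library.

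**Figure D1:**
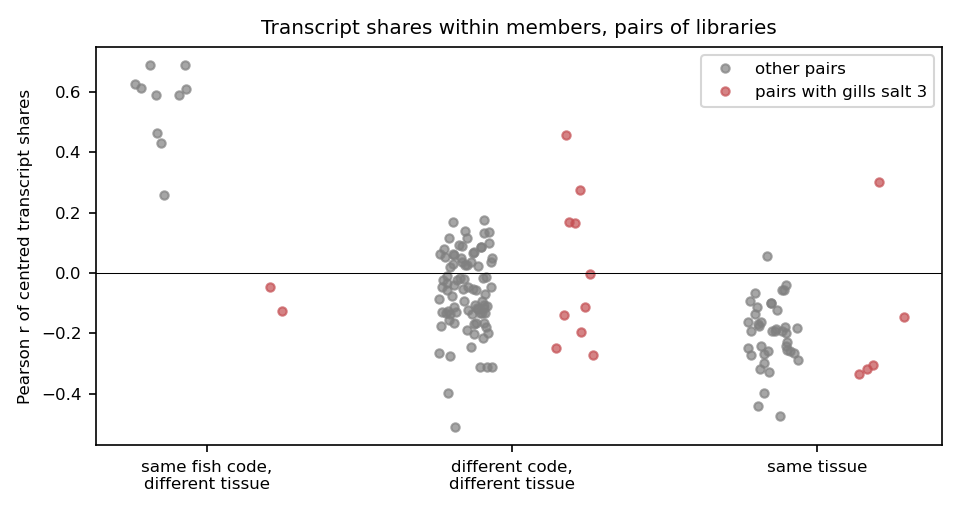
Pearson r between pairs of libraries over the centred shares of 270 transcripts in 84 members, grouped on the horizontal axis by whether the pair shares a fish code, only a tissue, or neither; each point is a pair and red points are pairs with the gill library labelled salt 3. Pairs of the same code lie at 0.259 to 0.688, except the red pairs at -0.126 and -0.0468.

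The members were tagged with 8 segments in 80 genes, 9 in 58, 10 in 58 and 11 in 54. A protein hit was listed for 248 of them, of which 224 had a main hit with the source code DANRE, whose accessions have the Ensembl prefix for zebrafish proteins. The code FUGRU followed with 19. The main hits were 244 distinct accessions, and 2 hits were shared, among 6 members. In 62 members the transcripts listed several different first protein hits. Distinct main hits therefore do not show that each member stood for its own protein. All 250 members carried the signal peptide tag, but so did 100% of the 9575 transcripts with any segment tag in the 3 tables. The tag therefore says nothing particular about these genes.

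A member had a median of 4 transcripts and at most 12, and 24 members had 1. Of the 1067 member transcripts, 566 carried 8 to 11 segments, 308 carried 1 to 7 and 193 carried no segment tag. The median member had 88.1% of its counts in transcripts tagged with 8 to 11 segments. In 117 members this was over 90%, and in 6 it was under 10%, so for those few the gene's count is mostly that of transcripts with fewer segments or no segment tag. Main hits of 25 members were also listed by transcripts of other genes, and 22 members shared an assembly component with another member; reads of near-identical copies could be split between them, and their separate values are uncertain.

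At the limit of the rule, DN26529_c0_g1 with 3.29 CPM and DN42085_c0_g1 with 2.76 CPM were the last kept. The next, DN9130_c0_g2 with 2.43 CPM and DN49377_c0_g1 with 2.24 CPM, were left out. Gene identifiers are written without the prefix they all share.

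Members were spread over more tissues than most assembled genes. Brain listed 219 of them, gills 205 and liver 188. All 3 tables listed 162 members (64.8%), against 32.6% of all genes, and a single table listed 50 (20%), against 47.5% of all genes. The members seen in a single table were 29 in brain, 11 in gills and 10 in liver. Each table holds only transcripts that reached 1 CPM in at least 2 of its libraries, and the rule kept genes of higher level, so presence in more tables is not independent of the choice. In bulk tissue, fewer cells of a type and less RNA per cell cannot be told apart.

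Together the members took 1.37 to 1.57% of all counts in the brain libraries, 0.885 to 1.18% in gills and 0.321 to 0.739% in liver. Brain means were 1.46 ± 0.102% (SD, n = 3) at the reference and 1.46 ± 0.0362% at the salt station. Gill means were 0.965 ± 0.0987% at the reference and 1.14 ± 0.0440% at the salt station, or 1.16% over the libraries labelled salt 1 and 2 alone. In liver the means were 0.614 ± 0.196% at the reference and 0.395 ± 0.0867% at the salt station, but the order turned on the TMM scale used for the tests, with a summed level of 4423 ± 874 CPM at the reference and 5307 ± 976 CPM at the salt station. No p is given for these sums, since the members were chosen with results known.

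The highest tissue mean lay in brain for 113 members, in gills for 99 and in liver for 38. Among the 162 members of all 3 tables the split was 69, 73 and 20, or 42.6, 45.1 and 12.3%, beside 44.1, 49.9 and 6.0% of the 11818 genes listed in all 3 tables. For 81 of these members the lowest library of the leading tissue lay above every library of both other tissues: 44 led by brain, 32 by gills and 5 by liver. That was 27.2, 19.8 and 3.09% of the 162 members, beside 20.3, 21.1 and 1.18% of the 11818 genes. By segment number, members with 11 segments were led by brain in 29, gills in 16 and liver in 9, and members with 8 segments by brain in 34, gills in 36 and liver in 10. The split depends on the scale: with TMM factors over all 18 libraries, where library sizes count only the genes of all 3 tables, it was 103, 61 and 86 over all 250 members. On that scale liver led 64 of the 162 members of all 3 tables. With the dominant hit alone taken out of the liver totals the split was 110, 96 and 44.

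**Figure D2:**
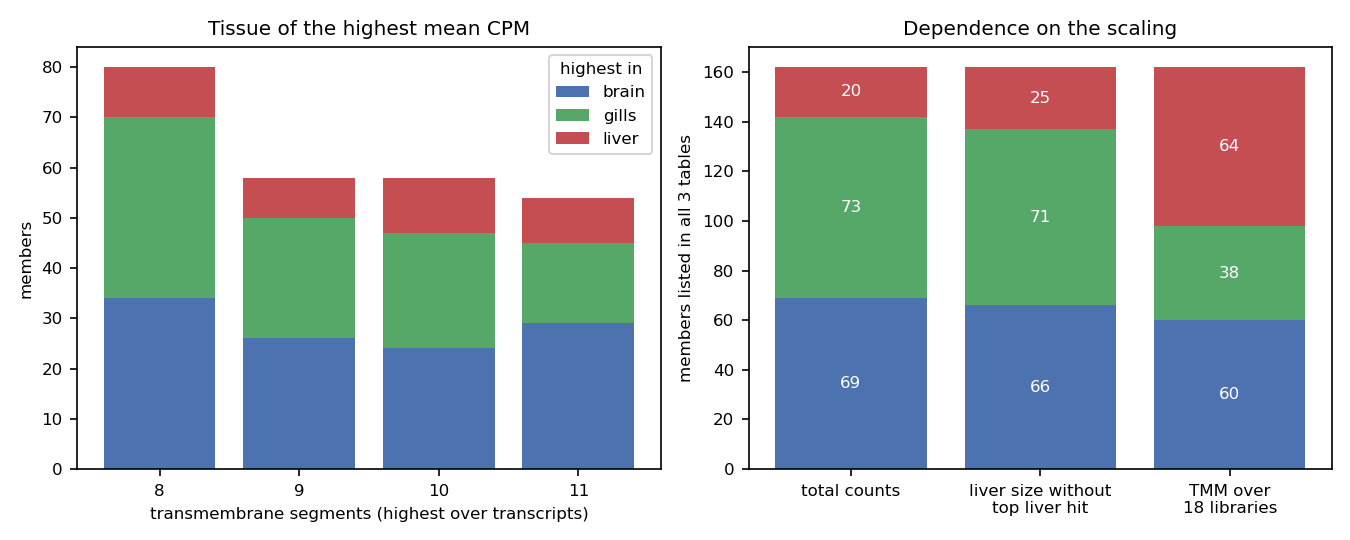
Number of members by the tissue of their highest mean CPM, on the left for each number of transmembrane segments (all 250 members, total counts) and on the right for the 162 members of all 3 tables under 3 ways of scaling. Liver leads 20 of the 162 on total counts and 64 with TMM factors over 18 libraries.

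Most members differed moderately between tissues. In the 162 members of all 3 tables the median ratio of the highest to the second tissue mean was 2.04, and in 79 it was under 2. A ratio of at least 10 was found in 15 members, 8 led by brain, 7 by gills and 0 by liver. In 11 members the highest tissue mean was less than 2 times the lowest. Counts are not corrected for transcript length, and no lengths come with the tables, so the levels below compare a gene with itself across tissues and not with other genes. For each tissue the lowest, median and highest of its 6 libraries are given on total counts.

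Among the members led by brain, DN2222_c1_g2 was listed in brain alone, at 1259, 1547 and 2319 CPM for the lowest, median and highest library. The transcripts with its main hit XP_031757157.1 held 84.6% of its counts and were tagged with 4 segments or none, while the transcript tagged with 8 segments listed ENSDARP00000106807 and held 14.1%. DN7010_c1_g1 (ENSDARP00000081504, 9 segments) stood at 574, 594 and 725 CPM in brain, at 196, 289 and 360 CPM in gills and at 21.1, 36.0 and 54.6 CPM in liver. The 3 tissues did not overlap for this gene, and its order was brain, gills, liver. DN6775_c1_g1 (ENSDARP00000034403, 10 segments), the member with 12 transcripts, stood at 507, 591 and 635 CPM in brain, 79.1, 326 and 587 CPM in liver and 16.3, 29.4 and 60.7 CPM in gills. Its liver and brain libraries overlapped, and the order of the 2 tissues turned with TMM factors over 18 libraries. Only 36.9% of its counts lay in transcripts with that hit, the same that carry 8 to 11 segments. Summed over these transcripts alone, with TMM within each tissue, brain stood at 117 ± 22.2 CPM (SD, n = 3) at the reference and 89.8 ± 22.4 CPM at the salt station. The liver means were higher, at 145 ± 94.1 and 241 ± 104 CPM, but the tissues overlapped, with liver reference 1 at 38.9 CPM. Factors fitted within a tissue do not put the tissues on a shared scale.

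Near-exclusive brain signal marked another 3 members. DN2579_c2_g2 (jgi_Takru4_594797, 11 segments) stood at 459, 489 and 624 CPM in brain, against a highest library of 11.4 CPM in gills and 5.09 CPM in liver. DN484_c1_g1 (ENSDARP00000047415, 10 segments) ran from 182 to 321 CPM in brain, with a highest value of 3.34 CPM in gills and 4.33 CPM in liver. DN2516_c3_g1 (ENSDARP00000106962, 11 segments) had 138 to 195 CPM in brain libraries, 1.78 to 4.15 CPM in gill libraries and 0.0251 to 2.19 CPM in liver libraries. In each of the 3, every brain library lay above every gill and liver library. The gill and liver values are traces whose own order was not stable under scaling for DN484_c1_g1.

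Among the members led by gills, some levels were uneven between fish. DN82355_c0_g1 (ENSDARP00000121883, 11 segments) stood at 974, 404 and 412 CPM in gills of references 1, 2 and 3 and at 932, 964 and 1000 CPM in gills labelled salt 1, 2 and 3. Reference 1 lay among the salt libraries, and references 2 and 3 lay apart. Gill references 2 and 3 have codes with the letter A, where all other reference codes carry C. Neither shares a code with a brain or liver library, and the labels do not say what the letter marks. In brain the highest library of DN82355_c0_g1 was 17.8 CPM and in liver 7.97 CPM. DN190_c1_g1 (ENSDARP00000042060, 11 segments), which has a single transcript, stood at 378, 0 and 156 CPM in the reference gills and at 724, 739 and 385 CPM in the gills labelled salt. The library with 0 counts, reference 2, allows up to 0.197 CPM, while the other 5 gills held 3779 to 17894 counts each. Its edgeR log2 fold change was 1.75 (SE 1.71), or 2.01 (SE 1.99) without the library labelled salt 3. The groups overlapped on the TMM scale of the test, where reference 1 stood at 388 CPM and salt 3 at 372 CPM, but not on total counts. In brain this gene ran from 0.618 to 8.21 CPM, and liver does not list it.

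DN1374_c1_g2 (ENSDARP00000015966, 11 segments) was the steadier gill gene, at 238, 309 and 391 CPM in gills against a highest library of 12.2 CPM in brain and 6.24 CPM in liver. DN8028_c0_g1 (ENSDARP00000098054, 8 segments) stood at 68.9, 106 and 111 CPM in gills, with at most 5.51 CPM in brain and 2.71 CPM in liver. DN3031_c0_g1 (ENSDARP00000039879, 10 segments) stood at 127, 470 and 648 CPM in gills, 17.1, 90.8 and 95.2 CPM in brain and 39.7, 84.8 and 124 CPM in liver. Its gill libraries all lay above those of brain and liver, and brain and liver overlapped.

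The liver-led members of highest level varied widely between fish. DN1303_c1_g2 (ENSDARP00000093333, 9 segments), listed in liver alone, stood at 79.8, 990 and 425 CPM in the reference and at 332, 118 and 450 CPM in the salt livers. Of its counts, 28.3% lay in the transcript tagged with 9 segments. DN9197_c1_g1 (ENSDARP00000067445, 9 segments) stood at 25.1, 512 and 655 CPM in the reference and at 127, 214 and 537 CPM in the salt livers, while brain means were 27.6 CPM and gill means 37.5 CPM. Only 8.14% of its counts lay in the transcript tagged with 9 segments. For both genes reference 1 was the lowest of the 6 livers and the stations overlapped.

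A liver gene clear of the other tissues was DN1559_c0_g1 (ENSDARP00000093644, 10 segments), at 135, 184 and 303 CPM in liver, 53.2, 69.6 and 91.8 CPM in brain and 18.5, 45.1 and 71.1 CPM in gills. Every liver library lay above all others, and brain and gills overlapped. DN2440_c0_g1 (ENSDARP00000123668, 11 segments) had a liver mean of 53.5 ± 38.3 CPM (SD, n = 6), with brain at 6.0 ± 3.56 CPM and gills at 2.94 ± 1.04 CPM. DN2085_c1_g1 (ENSDARP00000050823, 8 segments) had a liver mean of 61.3 ± 28.1 CPM, against 9.71 ± 0.946 CPM in brain and 6.88 ± 1.86 CPM in gills. For DN2085_c1_g1 the order reversed when only transcripts listed in all 3 tables were summed, so its liver lead rests on transcripts that the brain and gill tables do not both list. No brain or gill transcript listed its main hit, so the brain and gill values are of transcripts without that hit.

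Even levels were found in 3 members chosen for the smallest ratio between tissues. DN14639_c0_g1 (ENSDARP00000000250, 8 segments) averaged 87.8 ± 19.1 CPM in brain, 70.5 ± 22.7 CPM in gills and 90.1 ± 46.5 CPM in liver (SD, n = 6). DN3451_c0_g2 (jgi_Takru4_608204, 8 segments) averaged 12.9 ± 2.85 CPM in gills and 14.3 ± 8.71 CPM in liver, with brain libraries from 7.25 to 12.7 CPM. DN8721_c0_g2 (ENSDARP00000047400, 10 segments) averaged 16.5, 17.3 and 23.5 CPM, but its liver libraries ran from 1.32 to 61.2 CPM. In all 3 the tissues overlapped on total counts. The evenness holds on that scale only: with TMM factors over 18 libraries the liver means were 339, 53.3 and 86.8 CPM, beside 97.2, 11.3 and 18.4 CPM in brain and 71.1, 13.1 and 17.4 CPM in gills.

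**Figure D3:**
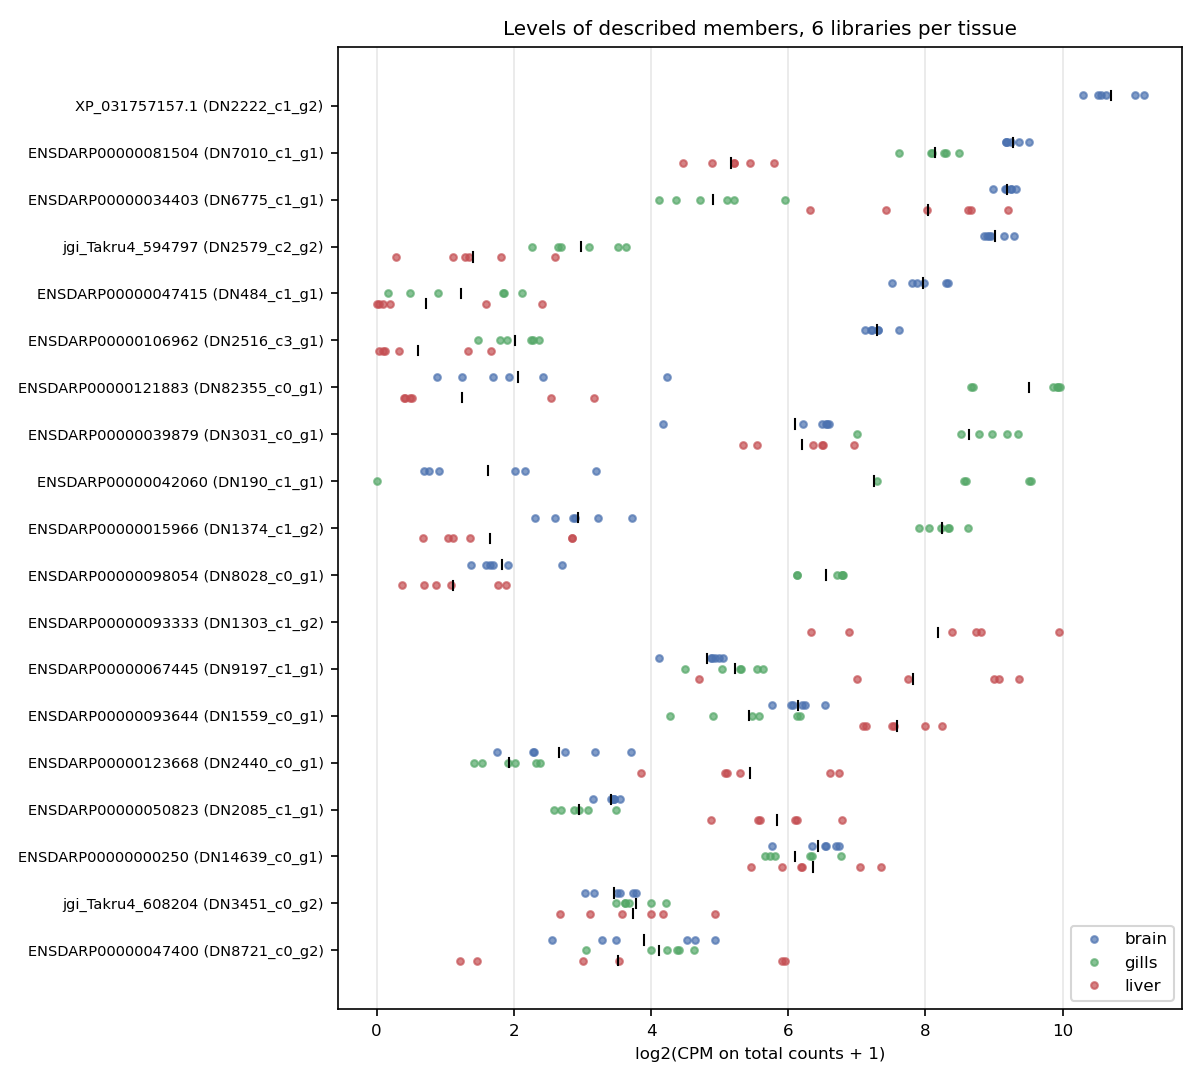
Levels of the members described by tissue, as log2(CPM on total counts + 1) on the horizontal axis, with a point per library (6 per tissue), a black bar at the mean of the log2 values and a line of points per gene. Genes led by brain stand at the top, then genes led by gills, by liver, and even genes; tissues with no points are those whose table does not list the gene.

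Assembled genes that shared a main protein hit differed in their levels across tissues. The hit ENSDARP00000092234 led 4 members. DN1004_c2_g1 (11 segments) averaged 20.6 CPM in brain, 6.99 CPM in gills and 3.98 CPM in liver, whereas DN4499_c1_g1 (9 segments) averaged 1.11, 17.8 and 2.02 CPM and DN2313_c1_g1 (8 segments) 2.63, 12.4 and 1.64 CPM. DN4603_c0_g1 (8 segments) was listed in gills alone, at 11.9 CPM. Thus 1 of these assembled genes led in brain and the other 3 in gills. The hit jgi_Takru4_594797 led DN2579_c2_g2, described above as near-exclusive to brain, and its neighbour DN2579_c2_g1 (10 segments), which averaged 61.9 CPM in brain, 50.3 CPM in gills and 1.84 CPM in liver. Whether such genes are separate copies or parts of the same gene was not tested. Reads can be split between them, so the separate levels are uncertain.

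Between fish of a tissue, the members varied somewhat less than all genes listed in brain and gills. The rule kept genes of higher level, and levels were not matched in this comparison. The median range over the 6 libraries was 1.71-fold in brain, 2.04-fold in gills and 2.50-fold in liver on CPM + 1 with TMM factors, beside 1.85, 2.46 and 2.38-fold for all genes listed. A range of at least 4-fold was found in 23 of 219 members in brain, 27 of 205 in gills and 49 of 188 in liver, which is 10.5, 13.2 and 26.1%, beside 11.1, 21.8 and 21.7% of all genes. The gills of reference 3 were the lowest library for 69 members (33.7%), against 19.9% of all genes. The gill library labelled salt 3 was rarely at an extreme, being the highest for 11 members (5.37%) and the lowest for 13 (6.34%), beside 8.73 and 7.43% of all genes.

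Some members were present in a few fish and nearly absent from others of the same group; these were picked after their values were seen, as the widest in range. DN24819_c0_g2 (ENSDARP00000119588, 8 segments) stood at 38.2, 1.33 and 0 CPM in the reference brains and at 0, 0 and 9.30 CPM in the salt brains. DN25976_c0_g1 (10 segments, no protein hit) stood at 0, 27.0 and 0.160 CPM in the reference gills and at 57.3, 6.62 and 0 CPM in those labelled salt. DN291_c0_g1 (ENSDARP00000051753, 10 segments) stood at 0.282, 48.4 and 2.75 CPM in the reference livers and at 4.16, 6.44 and 109 CPM in the salt livers. In all 3 the high libraries came from both stations.

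Within genes, the leading transcript also changed from fish to fish. In brain 109 of 178 members with several transcripts (61.2%) had a different leading transcript in different libraries, in gills 103 of 162 (63.6%) and in liver 87 of 122 (71.3%). A transcript that made up at least 50% of its gene in a library was at 0 counts in another library of the same tissue in 68, 69 and 58 members. Summing to genes, as was done here, removes switches between transcripts of the same assembled gene from the station tests. Switches between copies assembled as separate genes stay in them.

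In brain no member passed the edgeR test between stations. edgeR called 0 of 218 members tested, as it called 0% of the 26930 brain genes at an adjusted p under 0.05. At an unadjusted p under 0.05 there were 12 members, 9 higher and 3 lower at the salt station, beside 6.41% of all genes. DESeq2 called 4 of 217 members beside 1.31% of all genes. All 3 salt libraries lay above all 3 reference libraries in 13 members, beside 5.75% of all genes, and below them in 13, beside 7.75%. The members' log2 fold changes had a median of 0.00 with quartiles of -0.18 and 0.24, against 0.00, -0.27 and 0.28 for all genes. A change beyond 1 on the log2 scale in either direction was seen in 11 members (5.05%), against 11% of all genes. The levels of members and of all genes were not matched in this comparison, nor in that for liver below.

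**Figure D4:**
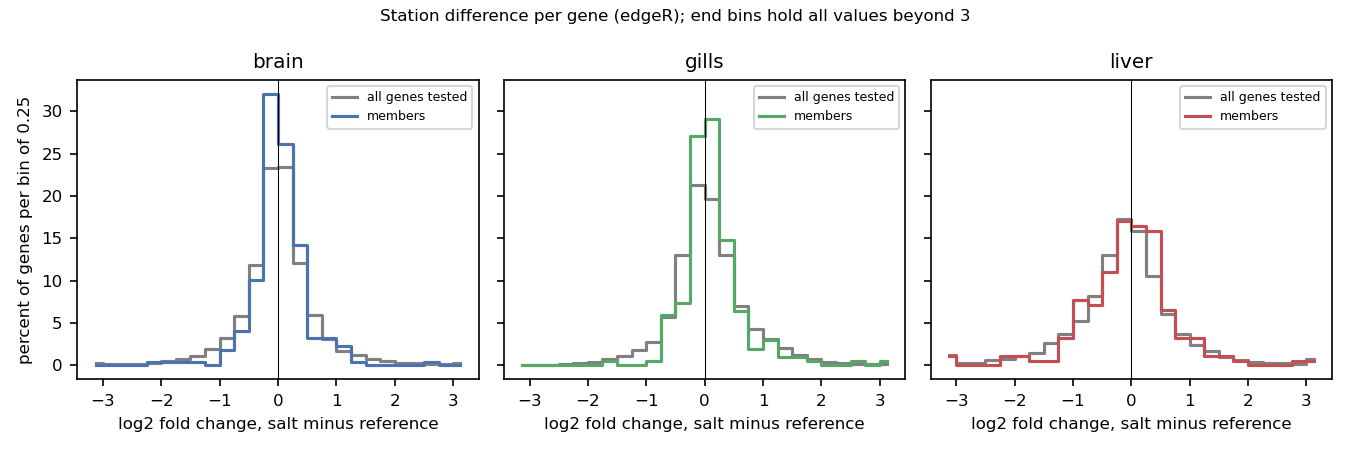
Percent of genes in each bin of 0.25 of the edgeR log2 fold change, salt minus reference, for all genes tested (grey) and members (colour) in brain, gills and liver; the end bins hold all values beyond 3. Members cluster near 0 in brain and gills (medians 0.00 and 0.07), and liver has the widest spread (27 of 182 members beyond 1 in either direction).

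Among brain members without overlap and with a mean of at least 50 counts, DN364_c1_g1 (ENSDARP00000078672, 9 segments) had the smallest p. Only 33.2% of its counts over the 3 tissues lay in transcripts tagged with 8 to 11 segments. DN364_c1_g1 stood at 36.1, 24.2 and 33.9 CPM in the reference and at 79.9, 53.7 and 65.5 CPM in the salt brains. These values are on the TMM scale used for all station values. The groups did not overlap, and the log2 fold change was 1.08, with an SE of 0.22 and an adjusted p of 0.509 in edgeR and 0.00266 in DESeq2. DN21301_c0_g1 (ENSDARP00000118119, 10 segments) stood at 34.7, 47.3 and 24.2 CPM in the reference and at 62.7, 84.3 and 85.9 CPM in the salt brains. Again every salt library was the higher, with a log2 fold change of 1.13, with an SE of 0.27 and an adjusted p of 0.616 in edgeR and 0.0117 in DESeq2. DN11520_c0_g2 (ENSDARP00000126544, 11 segments) stood at 23.6, 31.4 and 20.3 CPM against 40.5, 50 and 38.9 CPM, a log2 fold change of 0.78, with an SE of 0.21 and an adjusted p of 0.654 in edgeR and 0.0441 in DESeq2.

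On the lower side, DN5376_c0_g1 (ENSDARP00000080453, 10 segments) stood at 32.9, 40.5 and 40.2 CPM in the reference and at 25, 24.1 and 27.8 CPM in the salt brains. The groups did not overlap, and the log2 fold change was -0.56, with an SE of 0.14 and an adjusted p of 0.648 in edgeR and 0.0286 in DESeq2. DN6719_c0_g4 (ENSDARP00000072130, 8 segments) was even within groups, at 377, 375 and 399 CPM against 319, 325 and 337 CPM. Its log2 fold change was -0.23, with an SE of 0.08 and an adjusted p of 0.763 in edgeR. DN1577_c1_g1 (ENSDARP00000078092, 10 segments) stood at 30.2, 29.0 and 34.2 CPM against 19.6, 20.1 and 27.4 CPM, a log2 fold change of -0.48. DN6719_c0_g4 and DN1577_c1_g1 each hold transcripts with 3 different first hits. Over the brain transcripts that list ENSDARP00000072130, the level was 272, 254 and 276 CPM against 229, 242 and 258 CPM. Over those that list ENSDARP00000078092, it was 22.7, 22.7 and 22.3 CPM against 13.4, 15.5 and 22.8 CPM. For both hits the stations overlapped, with the lower mean in the salt brains. These members were picked for small p-values in the same libraries, so the DESeq2 calls are no separate support.

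Of the brain genes of high level, none passed the test between stations. DN2579_c2_g2 stood at 482, 495 and 605 CPM in the reference and 473, 575 and 473 CPM in the salt brains, a log2 fold change of -0.06 (SE 0.14). DN6775_c1_g1 had a log2 fold change of 0.09 (SE 0.13) and DN2222_c1_g2 one of -0.13 (SE 0.25). DN7010_c1_g1 stood at 707, 623 and 638 CPM against 569, 617 and 573 CPM, without overlap, and its log2 fold change was -0.16, with an SE of 0.10 and an adjusted p of 0.836 in edgeR.

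In gills no member stood out by station. edgeR called 0 of 203 members and 0% of 22958 genes, and DESeq2 likewise called 0 of 203 members and 0% of genes. At an unadjusted p under 0.05 edgeR gave 3 members, all higher in the libraries labelled salt, beside 1.05% of all genes. Without overlap there were 6 members higher in salt, beside 2.95% of all genes, and 5 lower, beside 3.27%. The median log2 fold change was 0.07 for members and 0.03 for all genes, and 119 of 203 members (58.6%) were higher in salt, beside 52.4% of all genes. With the library labelled salt 3 left out, 6 of 205 members were at an unadjusted p under 0.05, beside 3.22% of all genes, and with gill reference 1 left out as well there were 7, beside 3.15%; edgeR called 0 members in both cases. Without that library 121 of 205 members (59%) were higher in salt, beside 52.8% of all genes. Both remaining salt libraries then lay above the reference in 26 members, beside 9.8% of all genes, and below it in 14, beside 8.29%. The reference gills carry different code letters, as given above, and the part of this split in the gill differences was not tested.

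Among gill members without overlap and with a mean of at least 50 counts, DN1004_c2_g1 had the smallest p. It is led by brain and shares its hit with 3 gill-led members. Of its counts over the 3 tissues, 42.4% lay in transcripts tagged with 8 to 11 segments. DN1004_c2_g1 stood at 5.44, 2.65 and 3.08 CPM in the reference gills and at 8.01, 15.8 and 6.44 CPM in those labelled salt 1, 2 and 3. The log2 fold change was 1.43 (SE 0.52; unadjusted p = 0.0308, edgeR adjusted p = 1.00), and 1.68 without the library labelled salt 3. Summed over all 26 gill transcripts that list ENSDARP00000092234, in 11 genes, the level was 63.1, 57.9 and 41.7 CPM in the reference and 89.1, 113 and 63.8 CPM in the libraries labelled salt. Here too the groups did not overlap, but salt 3 and reference 1 lay within 1 CPM of each other.

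DN296_c0_g1 (ENSDARP00000038666, 11 segments) stood at 50.2, 42.3 and 40.3 CPM against 51.9, 82.9 and 53.7 CPM in gills. Its log2 fold change was 0.51 (SE 0.26) with all libraries, 0.26 without salt 2 and 0.61 without the library labelled salt 3. DN520_c2_g1 (ENSDARP00000129119, 10 segments) stood at 77.9, 74.9 and 48.4 CPM against 93.2, 111 and 78.3 CPM, a log2 fold change of 0.49 (SE 0.26), which was 0.30 without reference 3 and 0.61 without the library labelled salt 3. For both genes the lowest salt library lay within 2 CPM of the highest reference library.

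Lower in the gills labelled salt was DN59_c0_g3 (ENSDARP00000021569, 8 segments), at 6.08, 5.79 and 8.61 CPM against 4.23, 2.21 and 5.77 CPM. Its log2 fold change of -0.75 (SE 0.49) was -0.44 without salt 2 and -1.09 without the library labelled salt 3. In gills 3 transcripts with 3 different hits make up this gene, and over the gill transcripts that list ENSDARP00000021569, which lie in 2 genes, the level was 1.54, 3.22 and 1.80 CPM in the reference and 11.2, 2.01 and 2.02 CPM in the libraries labelled salt. That hit's values thus overlapped between stations and had the higher mean in salt, 5.08 against 2.19 CPM. DN775_c2_g1 (ENSDARP00000111637, 11 segments) stood at 29.8, 40.1 and 31.2 CPM against 25.9, 26.3 and 29.1 CPM, a log2 fold change of -0.31 (SE 0.23), or -0.19 without reference 2 and -0.37 without the library labelled salt 3. DN2076_c0_g1 (ENSDARP00000036819, 8 segments) stood at 53.1, 62.0 and 48.9 CPM against 46.8, 43.0 and 47.8 CPM, a log2 fold change of -0.25 (SE 0.19), or -0.29 without that library. Only 30.3% of this gene's counts over the 3 tissues lay in transcripts tagged with 8 to 11 segments. For each of these gill members edgeR gave an adjusted p of 1.00.

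In liver the members spread more widely, and their direction depended on the scaling. edgeR called 0 of 182 members and 0% of 14343 genes. At an unadjusted p under 0.05 there were 14 members, 7 higher and 7 lower at the salt station, beside 6.39% of all genes. DESeq2 called 2 of 177 members, beside 1.46% of genes. All salt libraries lay above the reference in 14 members, beside 7% of all genes, and below it in 13, beside 6.92%. The median log2 fold change was 0.00 for members and -0.09 for all genes, and 27 members (14.8%) lay beyond 1 in either direction, against 20% of all genes. Without scaling factors the medians were -0.92 and -0.98 and only 15 of 182 members were higher in salt livers, where 90 were with TMM. On total counts 53 members then had an unadjusted p under 0.05, 1 higher and 52 lower, beside 28.9% of all genes.

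DN1559_c0_g1, described above for its liver level, stood at 131, 102 and 107 CPM in the reference and at 387, 268 and 332 CPM in the salt livers. On this TMM scale the groups lay far apart, with a mean of 113 ± 15.5 CPM (SD, n = 3) against 329 ± 59.7 CPM. On total counts they overlapped, at 135, 140 and 186 CPM against 303, 182 and 253 CPM. The log2 fold change was 1.54, with an SE of 0.30 and an adjusted p of 0.707 in edgeR and 9.41e-06 in DESeq2. Without scaling factors the log2 fold change was 0.68. In brain the same gene stood at 64.8, 57.3 and 62.5 CPM against 71.0, 76.6 and 91.5 CPM, without overlap on the TMM scale. Its log2 fold change there was 0.37, with an SE of 0.13 and an adjusted p of 0.763 in edgeR. In gills its log2 fold change was 0.56 (SE 0.50), or 0.87 (SE 0.47) without the library labelled salt 3, and the groups overlapped. Brain and liver libraries of a code are from the same fish, so these tissues are not independent.

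DN10311_c0_g1 (ENSDARP00000121310, 9 segments) was a trace in the reference livers, at 0.0353, 0.377 and 0.295 CPM, and stood at 3.62, 0.797 and 16.7 CPM in the salt livers. The log2 fold change was 4.84, with an SE of 1.33 and an adjusted p of 0.736 in edgeR and 0.00734 in DESeq2. Only salt 1 and salt 3 reached 1 CPM on total counts, so the gene was listed in liver through the salt station alone. These p-values are thus no support for a station difference. Salt 2 held 12 counts, beside 17 and 16 in references 2 and 3, and on total counts stood at 0.541 CPM against 0.516 CPM in reference 3. Without salt 3, which held most counts of DN10311_c0_g1, the log2 fold change was 3.2. DN6008_c1_g3 (ENSDARP00000021782, 11 segments) stood at 19.3, 9.34 and 16.1 CPM against 34.4, 25.4 and 36.7 CPM, without overlap on the TMM scale. On total counts the stations overlapped, with reference 3 at 28.2 CPM and salt 2 at 17.3 CPM. With TMM the log2 fold change of DN6008_c1_g3 was 1.11, with an SE of 0.34 and an adjusted p of 0.736 in edgeR. Without scaling factors its log2 fold change was 0.24.

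Lower in salt livers were members whose difference grew without scaling. DN10672_c0_g1 (ENSDARP00000109660, 8 segments) stood at 15.3, 15.7 and 11.7 CPM against 6.08, 8.03 and 4.54 CPM, a log2 fold change of -1.19, with an SE of 0.30 and an adjusted p of 0.736 in edgeR and 0.0568 in DESeq2, and -2.08 on total counts. DN296_c0_g1 stood at 37.5, 28.8 and 34.1 CPM against 13.5, 14.8 and 21.9 CPM, a log2 fold change of -1.0, with an SE of 0.28 and an adjusted p of 0.736 in edgeR, and -1.88 on total counts. DN9677_c0_g1 (ENSDARP00000128060, 10 segments) stood at 10.1, 7.85 and 13.6 CPM against 1.51, 5.64 and 2.34 CPM, a log2 fold change of -1.74, with an SE of 0.55 and an adjusted p of 0.748 in edgeR, and -2.73 on total counts. The stations did not overlap for any of these genes.

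**Figure D5:**
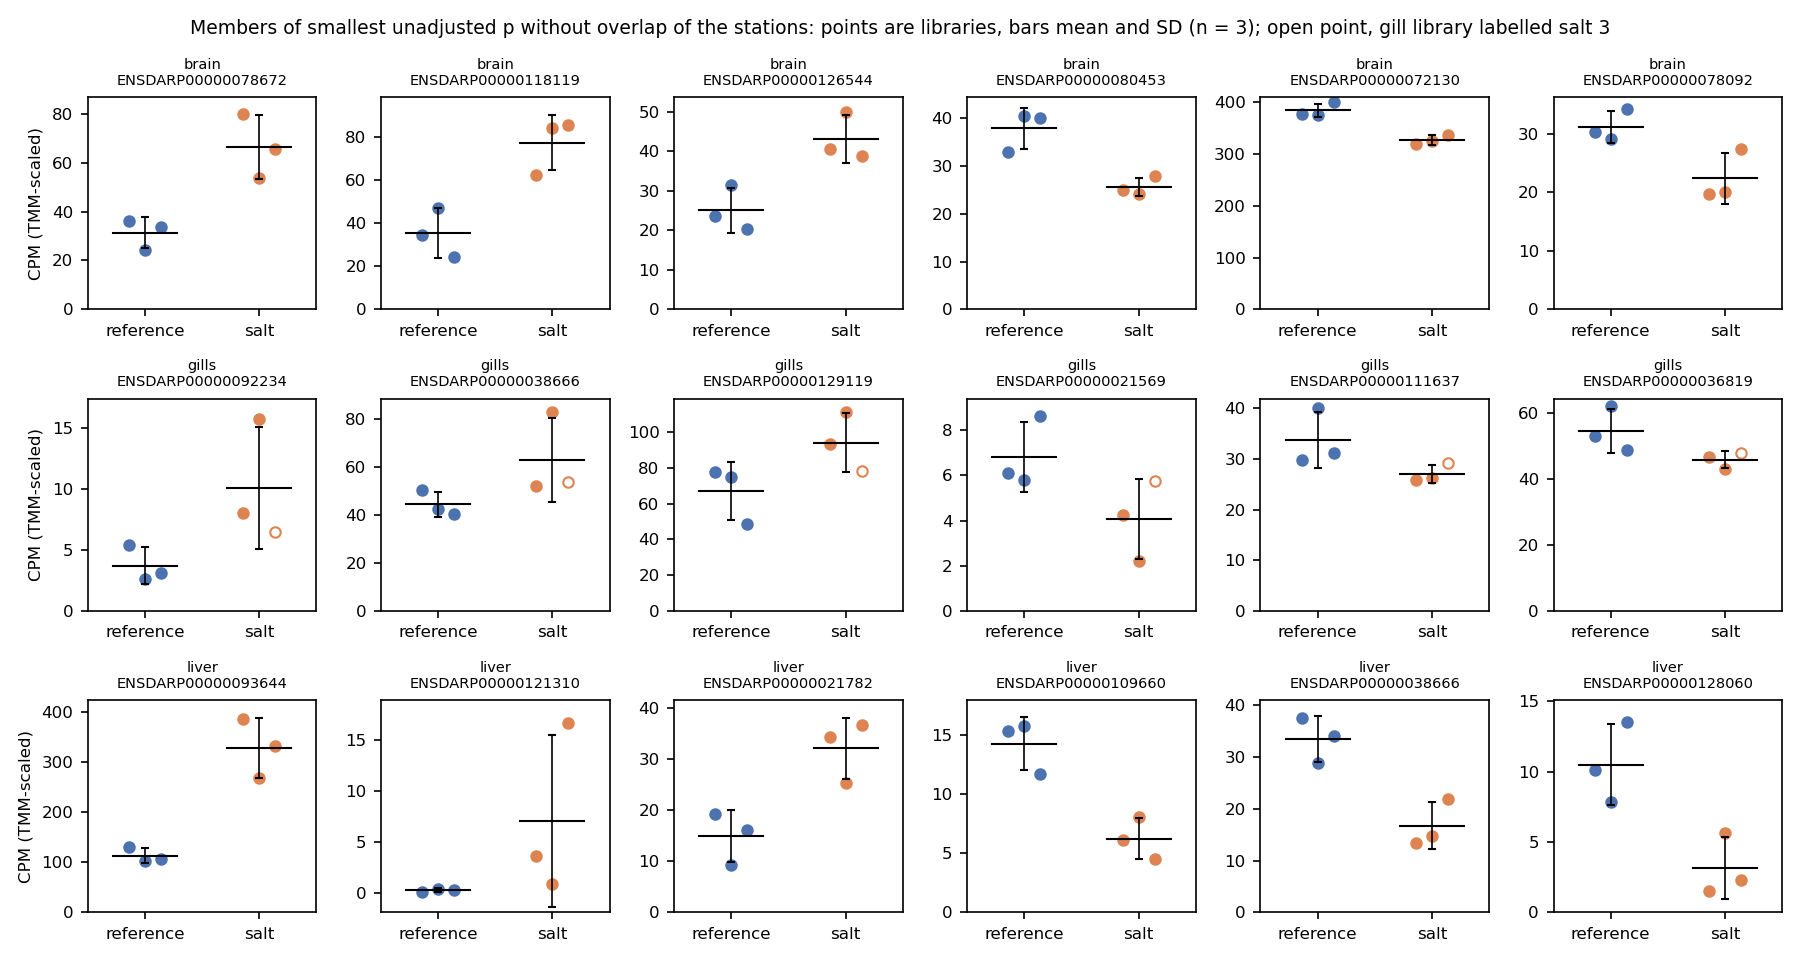
TMM-scaled CPM of the 6 members named per tissue for the smallest p without overlap, 3 reference and 3 salt libraries each, with the mean and SD as bars (n = 3); the open point is the gill library labelled salt 3. Salt libraries lie above the reference in the left 3 panels of each line and below it in the right 3, and no panel passed the edgeR threshold.

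Across tissues the station difference was compared in a fit over all 18 libraries, with 162 members among the 11818 genes of all 3 tables. The fit does not model that tissues share fish. edgeR called 0 members for gills minus brain beside 0% of genes, 0 for liver minus brain beside 0.0846% and 0 for liver minus gills beside 0.118%. At an unadjusted p under 0.05 there were 4 members beside 1.96% of genes, 18 beside 7.98% and 18 beside 9.76%. limma with the fish code as a block, where libraries of a code correlated at 0.151, called 1 member, DN296_c0_g1, for liver minus gills beside 0.228% of genes, and 0 for gills minus brain and liver minus brain, beside 0.00846 and 0.135%. That call uses the fish code of the gill library labelled salt 3, which its transcript shares go against, and was lost without it. In alternatives added after seeing the data, limma with the block called 0 members in any contrast with that library left out, beside 0, 0.127 and 0.161% of genes for gills minus brain, liver minus brain and liver minus gills. With it as a fish of its own, limma called 0 members for gills minus brain beside 0% of genes, 1 for liver minus brain, DN21301_c0_g1, beside 0.161% and 0 for liver minus gills beside 0.195%.

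DN296_c0_g1 was higher in every gill labelled salt and lower in every salt liver, as given above, with a log2 fold change of -0.03 in brain. The difference of its station effects, liver minus gills, was -1.50 on the log2 scale (SE 0.30; edgeR adjusted p = 0.0957), and -1.47 in limma with the block (adjusted p = 0.0452). Without the gill library labelled salt 3 it was -1.58 in edgeR (adjusted p = 0.111) and -1.50 in limma (adjusted p = 0.0823), and with that library as a fish of its own -1.45 in limma (adjusted p = 0.0519). DN21301_c0_g1, higher in salt brains, stood at 1.80, 0.954 and 0.517 CPM in the reference livers and at 0, 0 and 0.225 CPM in the salt livers, an opposite order at trace level. Its liver minus brain difference was -4.95 (SE 1.02; edgeR adjusted p = 0.114), and the limma adjusted p was 0.0527 with the block and 0.0487 with the gill library labelled salt 3 as a fish of its own. In liver only reference libraries reached 1 CPM on total counts, the level a transcript needed in at least 2 libraries to be listed. A higher reference was thus built into the listing, and these p-values are no support for a station difference. DN5376_c0_g1 was lower in salt fish in both brain and liver, where it stood at 43.4, 31.2 and 20.9 CPM against 16.5, 17.7 and 20.6 CPM (log2 fold change -0.80, SE 0.32).

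DN2516_c3_g1, the brain gene described above, was a trace in liver, with 7, 50 and 68 counts in references 1, 2 and 3 and 1, 2 and 2 counts in salt 1, 2 and 3. Its liver minus gills difference was -3.81 (SE 0.78; edgeR adjusted p = 0.0957). DN1233_c1_g1 (ENSDARP00000113532, 11 segments) had 9, 193 and 108 counts in the reference and 1, 2 and 3 counts in the salt livers, with a liver minus gills difference of -4.82 (SE 1.16; edgeR adjusted p = 0.176). In both genes reference 1 lay closer to the salt livers than to references 2 and 3, and it is the reference liver with 28.9% of its counts in the dominant hit. Reference 1 and the salt livers lay under 1 CPM for both genes, so they were listed in liver through references 2 and 3 alone. A higher reference was thus built into the listing, and these p-values are no support for a station difference. Without liver reference 1, edgeR called 4 members for liver minus brain, beside 1.22% of genes, and 6 for liver minus gills, beside 1.76%. DN2516_c3_g1 and DN1233_c1_g1 were called in each of these contrasts, with the same limit. The part of the dominant hit in these values was not tested.

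Among all members, 26 had an unadjusted p under 0.05 in edgeR in at least 1 tissue, and 3 had it in both brain and liver: DN1559_c0_g1, higher in both, DN5376_c0_g1, lower in both, and DN21301_c0_g1, in opposite directions. For DN21301_c0_g1 the liver direction was built into its listing, as given above. Of all genes tested, 6.41% were under that p in brain, 1.05% in gills and 6.39% in liver. No share of all genes was computed over the tissues together, so these counts are not read as a result about the members.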

How the data were processed

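RNA of 18 libraries was extracted with a column kit and made into TruSeq libraries, per the labels' protocols. The authors deposited raw whole-number counts per transcript in a table for each tissue. The submitters' processing notes name Trimmomatic and DESeq2 without versions; aligner and counting tool were not given in the sources used here. Libraries were grouped by title, and each count column was matched to its library by the code in the sample description. All per-sample columns were used.

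Counts were summed per gene. The 6 libraries of a tissue were fitted with edgeR 4.0.16 under R 4.3.3 (filterByExpr, TMM, quasi-likelihood F test, two-sided) and adjusted by the Benjamini-Hochberg method over all genes of the tissue, with a threshold of 0.05. Contrasts between tissues used the genes of all 3 tables. DESeq2 1.42.0 and limma 3.58.1 (log2 CPM, prior count 1) were alternatives. Tissue levels are CPM on total counts, and station levels use TMM factors within the tissue. Standard errors (SE) were derived as the log2 fold change over the root of F. Segment tags, transcript shares and ranges were read with Python 3.11.15. The fits were tested on simulated counts.

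The members, lists and tests were chosen with earlier results of these data known. Named genes are those called (at most 10 per direction), or else the 3 of smallest unadjusted p per tissue and direction without overlap and with a mean of at least 50 counts; the 4 of highest level per tissue; the 3 of largest ratio to the next tissue; the 3 most even; and those beside the limit of the rule. Of 195 symbols in lists of marker and pathway genes, 1 was found in the identifiers, cox1, which is no member, so these lists were not used. Alternatives changed the test, scaling, filter, member list, unit of counting and libraries. Replicate numbers name different fish at the 2 stations, and same-numbered libraries deviated from their station means with r from -0.362 to 0.158, so no pairing was used.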

Additional observations from a re-analysis of the deposited data

How the results depend on the processing

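Of the values of single named members between stations, 240 kept their direction and side of the threshold and 6 passed the threshold under DESeq2 only. These members were picked for stations without overlap in the same libraries, and their smallest adjusted p in edgeR was 0.509. Their direction and side could therefore hardly change, and the 240 are no separate support. DESeq2 called 4 members in brain and 2 in liver, where edgeR called 0, and the cause was not tested. The liver calls include DN10311_c0_g1, which was listed in liver through salt libraries alone. No other setting called a member within a tissue, leave-one-out included (0 to 0 in each tissue), although at an unadjusted p under 0.05 the members ran from 8 to 26 in brain (highest without reference 2), 0 to 6 in gills and 10 to 20 in liver (highest without reference 1). With the replicate number as a block, which does not pair these fish, 0 members were called in each tissue, and 10, 3 and 12 had an unadjusted p under 0.05. No share of all genes stands beside these leave-one-out and block counts, so they are not read as a result about the members.

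For differences between tissues, limma with the fish block called 1 member for liver minus gills. With the gill library labelled salt 3 as a fish of its own, an alternative added after seeing the data, it called 1 member for liver minus brain, beside 0.161% of genes, and 0 for liver minus gills. Leaving out a library gave 0 to 1 calls for gills minus brain, 0 to 4 for liver minus brain and 0 to 6 for liver minus gills. Without brain reference 3, DN9367_c1_g1 was called for gills minus brain beside 0.00846% of genes and for liver minus brain beside 0.0931%. The reference brains left in that fit, references 1 and 2, had 0 counts of this gene. Without liver reference 1 there were 4 and 6 calls for liver minus brain and liver minus gills, beside 1.22 and 1.76% of genes. These calls include genes listed in liver through reference libraries alone, as given above. Without liver salt 3 there were 1 and 2, beside 0.203 and 0.245%. Fewer libraries also change the spread, and the cause was not tested.

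Tissue levels depended on scaling. With TMM factors over 18 libraries 61 members led in gills and 86 in liver; with transcripts of all 3 tables alone, 64 of 158 members led in brain and 18 in liver. The log2 ratio of brain to liver reversed with these factors for DN1374_c1_g2 (-0.24), DN6775_c1_g1 (-0.92), DN8028_c0_g1 (-0.86) and DN82355_c0_g1 (-0.65), that of gills to liver for DN484_c1_g1 (-0.91), and that of brain to gills for DN8721_c0_g2 (0.076). With shared transcripts alone, brain to liver reversed for DN2085_c1_g1 (2.73) and DN3031_c0_g1 (0.41), gills to liver for DN2085_c1_g1 (2.46) and brain to gills for DN8721_c0_g2 (0.031). The causes were not tested. At 3 fish a group, differences within the spread between fish were not detectable, whatever the depth.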

Other observations

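DN9367_c1_g1 (ENSDARP00000121604, 9 segments), a gill gene picked after its values were seen, stood at 129, 135 and 109 CPM in gills of references 1, 2 and 3 and at 45.1, 71.0 and 119 CPM in gills labelled salt 1, 2 and 3. The library labelled salt 3 lay within the range of the reference gills, and the other 2 lay below it. In brain the gene had 0 counts in references 1 and 2 and 4.09 CPM in reference 3, against 8.84, 11 and 3.92 CPM in the salt brains. In liver it stood at 10.4, 6.23 and 8.30 CPM against 12.5, 11.8 and 8.18 CPM, and the stations overlapped.

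DN10131_c1_g1 (ENSDARP00000105551) and DN82_c0_g2 set liver reference 1 beside the salt livers. DN10131_c1_g1 had 0, 66 and 32 counts in the reference livers and 0 counts in all 3 salt livers. These counts are of 1 assembled gene, which was listed in liver through reference libraries alone. Over all 5 liver transcripts that list its hit, in 2 genes, the level was 15.1, 27.5 and 18 CPM in the reference livers. In the salt livers it was 20.5, 13.9 and 25.2 CPM, and the stations overlapped. DN82_c0_g2 stood at 6.39, 57.1 and 47.9 CPM in the reference livers and at 13.3, 16.9 and 23.8 CPM in the salt livers. In gills the same gene stood at 105, 69.2 and 85.0 CPM against 94.4, 91.0 and 92.9 CPM, and the stations overlapped. Both were picked after their values were seen.

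Other members with wide ranges were DN82716_c0_g1 (8 segments), at 0, 10.7 and 0.200 CPM in the reference gills and 32.7, 3.27 and 0.112 CPM in those labelled salt, and DN24789_c0_g1 (ENSDARP00000072082, 11 segments), at 0.0706, 0 and 38.6 CPM in the reference livers and 1.57, 0.133 and 19.1 CPM in the salt livers. High libraries came from both stations in each.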
